A study of Mus musculus with 39 samples.

Results

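The RNAs of the Nduf genes, which encode the nuclear subunits of respiratory complex I and the factors that assemble it, were followed across sucrose gradients of mouse liver homogenate. They were chosen by name, as every gene in both deposited tables whose symbol begins with Nduf, which gave 46 of the 13230 genes shared by the tables. No such symbol was in only 1 of the tables, and all 46 passed the filter for testing, a mean TPM (transcripts scaled to the same total in every library) of at least 1 over all libraries, along with 11652 genes in all. The name covers 36 subunits of complex I, 8 assembly factors (Ndufaf1 to Ndufaf8), and a pair of genes that do not belong to the complex as it is now understood: Ndufa4, whose product is now assigned to complex IV, and its paralog Ndufa4l2. The subunits made from mitochondrial DNA do not carry the prefix and were not analysed here, and neither was Ndufb1.

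Complex I is the entry point of the respiratory chain in the inner mitochondrial membrane. It takes electrons from NADH at the tip of a peripheral arm that stands in the matrix, passes them along iron-sulfur clusters to ubiquinone at the junction of the arms, and couples this to proton pumping in the membrane arm. Core subunits carry out the chemistry, accessory subunits surround and stabilize them, and assembly factors help to build the modules without remaining in the finished enzyme. All 46 RNAs are transcribed in the nucleus, and the proteins are made outside the mitochondrion, most of them for import into it.

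Livers came from wild-type FVB female mice, and their homogenates were made with beads and without detergent, cleared of nuclei and spun through a 10 to 50% sucrose gradient. The data comprise 39 libraries from 2 gradients, described in the study as biological replicates, with 17 libraries from gradient 1 (fractions 4 to 19 and 21) and 22 from gradient 2 (fractions 3 to 24), where low numbers are light and high numbers are dense. All libraries share strain, sex, genotype and tissue and differ only in fraction and gradient, so there is no treated or control group, and the labels do not give the age of the mice. The question was where each RNA sediments in the absence of detergent, and with whom.

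Totals per library lay between 998099 and 999202 TPM, and 10532 to 12558 genes per library were above 1 TPM. TPM keeps no read count, so the depth of the libraries is unknown here, and errors rest on how far the gradients differed. An equal mass of RNA entered each library, so TPM gives the share of an RNA within a fraction and not its amount, and less RNA in a fraction cannot be told apart from a different mixture of RNAs. The 6 hepatocyte markers, which include albumin, summed to between 8367 and 50217 TPM in every library, against 36.2 to 163 TPM for 5 Kupffer cell markers, 17.3 to 73.2 TPM for 5 endothelial markers and 8.20 to 90.8 TPM for 4 stellate cell markers. None of the 5 muscle markers was in both tables. The highest sums of these 3 minor cell types lay in light fractions (4 to 7), and so did those of the hepatocyte markers. The latter summed to 21413 to 50217 TPM there. Their sums were 8367 to 15671 TPM in fractions 10 to 13 and 12204 to 26958 TPM in fractions 16 to 19. The 3 red blood cell markers in both tables, of 5 listed, summed to 53.4 to 633 TPM, with 258 to 496 TPM in fractions 4 to 7, 135 to 455 TPM in fractions 10 to 13 and 66.4 to 106 TPM in fractions 16 to 19. The part of these cell types in the results was not tested.

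The Nduf RNAs were scarce at the top of the gradient, formed a shared maximum near its middle and remained at an intermediate level toward the bottom. Together they made up 0.320% of all TPM in fraction 4 of gradient 1, 2.46% in fraction 11 and 1.00% in fraction 21. In gradient 2 they made up 0.383% in fraction 5, 2.56% in fraction 11 and 0.941% in fraction 24. Within this common outline the order of the single RNAs was wide. When each profile was summarized by its center of sedimentation, the mean fraction number weighted by TPM over the 17 fractions that both gradients have, the members ran from 8.91 ± 0.08 (SD, n = 2) for Ndufaf4 to 15.7 ± 0.03 (SD, n = 2) for Ndufv1. Their median was 12.60 in gradient 1 and 12.57 in gradient 2, compared with 11.29 in both gradients for all genes tested. In gradient 1, 34 of the 46 RNAs peaked in fractions 9 to 13, 2 peaked in lighter fractions and 10 in denser ones, and in gradient 2 the numbers were 30, 3 and 13.

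**Figure D1:**
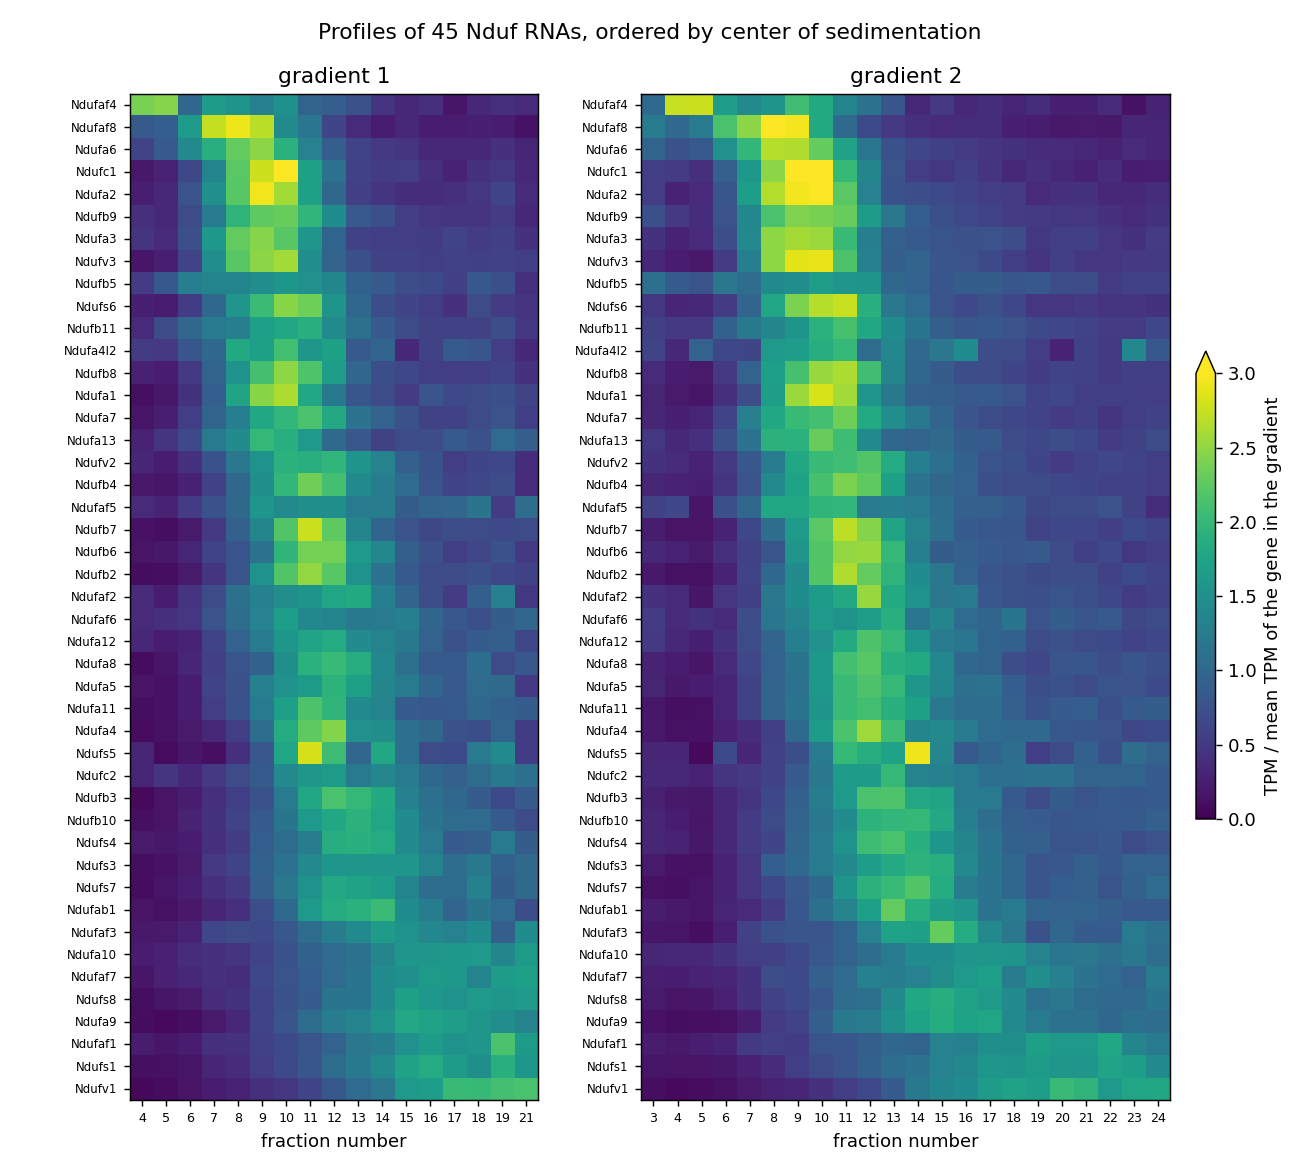
Heatmap of 45 of the 46 Nduf RNAs in gradient 1 (left, 17 fractions) and gradient 2 (right, 22 fractions), with fraction number on the horizontal axis, one RNA per line in order of center of sedimentation, and color for TPM divided by the RNA's mean in that gradient (values above 3 share the brightest color). The bright band lies near fractions 9 to 13 for most RNAs, with Ndufaf4 and Ndufaf8 left of it and Ndufv1, Ndufs1 and Ndufaf1 right of it in both gradients.

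Profiles were repeatable. Pearson's R between the gradients over the 17 shared fractions had a median of 0.968 among the 46 RNAs and was above 0.9 for 39 of them, including all 34 with a mean of at least 100 TPM. For all genes tested the median was 0.9003. The lowest values were those of Ndufa4l2 (0.70), a paralog of Ndufa4 that is known as a target of hypoxia signaling and had a mean of only 3.04 TPM, of the membrane-arm subunit Ndufs5 (0.77, mean 19.4 TPM) and of the assembly factor Ndufaf5 (0.79, mean 3.99 TPM). Levels ranged widely. The most abundant was Ndufa4 with a mean of 1218 TPM, followed by the membrane-arm subunits Ndufb9 with 895 TPM and Ndufb8 with 701 TPM. The median over the 36 subunits was 341 TPM, that of the 8 assembly factors was 29.2 TPM, and that of all genes tested was 15.3 TPM. The most abundant assembly factor, Ndufaf8, had a mean of 76.4 TPM, which is above only 2 of the 36 subunits, Ndufs5 and Ndufa11 (36.6 TPM).

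To compare positions with a test, TPM was averaged on the log2(TPM + 1) scale in a light zone (fractions 4 to 7), a middle zone (fractions 10 to 13) and a dense zone (fractions 16 to 19) of each gradient, and limma was fitted to the 6 zone means of all 11652 genes, with p-values adjusted over all of them by the Benjamini-Hochberg method and called under 0.05. Each gradient is 1 replicate. The changes below are differences on this log2 scale, which understates the change of low RNAs. TPM values given below for a zone are plain means over its 4 fractions. Statements that zones differ or overlap refer to these means. Because the zones of each gradient share a homogenate, a second fit took the gradient as a block, and its result is given beside the counts over all members and for a number of single members whose call it changed.

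From the light to the middle zone almost every member rose. Of 46, 42 were higher and 2 were lower (43 and 2 with the block), with a median difference of 2.13, while 23.7% of all genes tested were higher and 23.5% were lower (37.5% and 34.4% with the block), and the median of all genes was 0.06. The 2 lower RNAs encode assembly factors, Ndufaf4 and Ndufaf8. The 2 that did not pass were Ndufa6 (0.11 ± 0.24 SE, adjusted p = 0.721), an accessory subunit of the peripheral arm, and Ndufb5 (0.53 ± 0.23, adjusted p = 0.106), an accessory subunit of the distal membrane arm, and the latter passed with the gradient as a block (adjusted p = 0.00751).

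From the middle to the dense zone most of them fell again. 27 members were lower and 4 were higher (37 and 7 with the block), with a median of −0.94, while 22.7% of all genes were lower and 4.85% were higher (39.5% and 14.3% with the block) and the median of all genes was −0.28. The 4 that rose were the N-module core subunits Ndufv1 (1.43) and Ndufs1 (0.87), the assembly factor Ndufaf1 (0.86) and the membrane-arm subunit Ndufa10 (0.63), which has a fold related to nucleoside kinases. The 3 that rose only under the block were Ndufa9, Ndufaf7 and Ndufs8.

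Set against the mean of both ends, the middle zone was higher for 38 of 46 members and lower for none, where 13.6% of all genes were higher and 3.57% were lower. No member was lower at an unadjusted p under 0.05 either, since the difference was positive in both gradients for all 46. With the gradient as a block all 46 were called higher, and 35.0% of all genes were. The median difference was 1.53, compared with 0.15 for all genes. It was largest for Ndufb2 (2.46 ± 0.14 SE), Ndufb7 (2.39 ± 0.13) and Ndufa4 (2.25 ± 0.17), and smallest for Ndufaf4 (0.36 ± 0.18), Ndufaf1 (0.37 ± 0.15) and Ndufaf8 (0.38 ± 0.16), which did not pass without the block.

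The comparison of the ends with each other separated the members most. Between the light and the dense zone 32 were higher in the dense zone, 3 were lower and 11 did not pass, and with the block the numbers were 36, 5 and 5. Of all genes 22.4% were higher and 39.0% were lower, or 30.8% and 49.5% with the block. Differences ran from −2.38 for Ndufaf8 to 3.82 for Ndufv1, with a median of 1.37, while the median of all genes was −0.41. After quantile normalization, which moved the median of all genes to −0.04, the median of the members was 1.34.

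**Figure D2:**
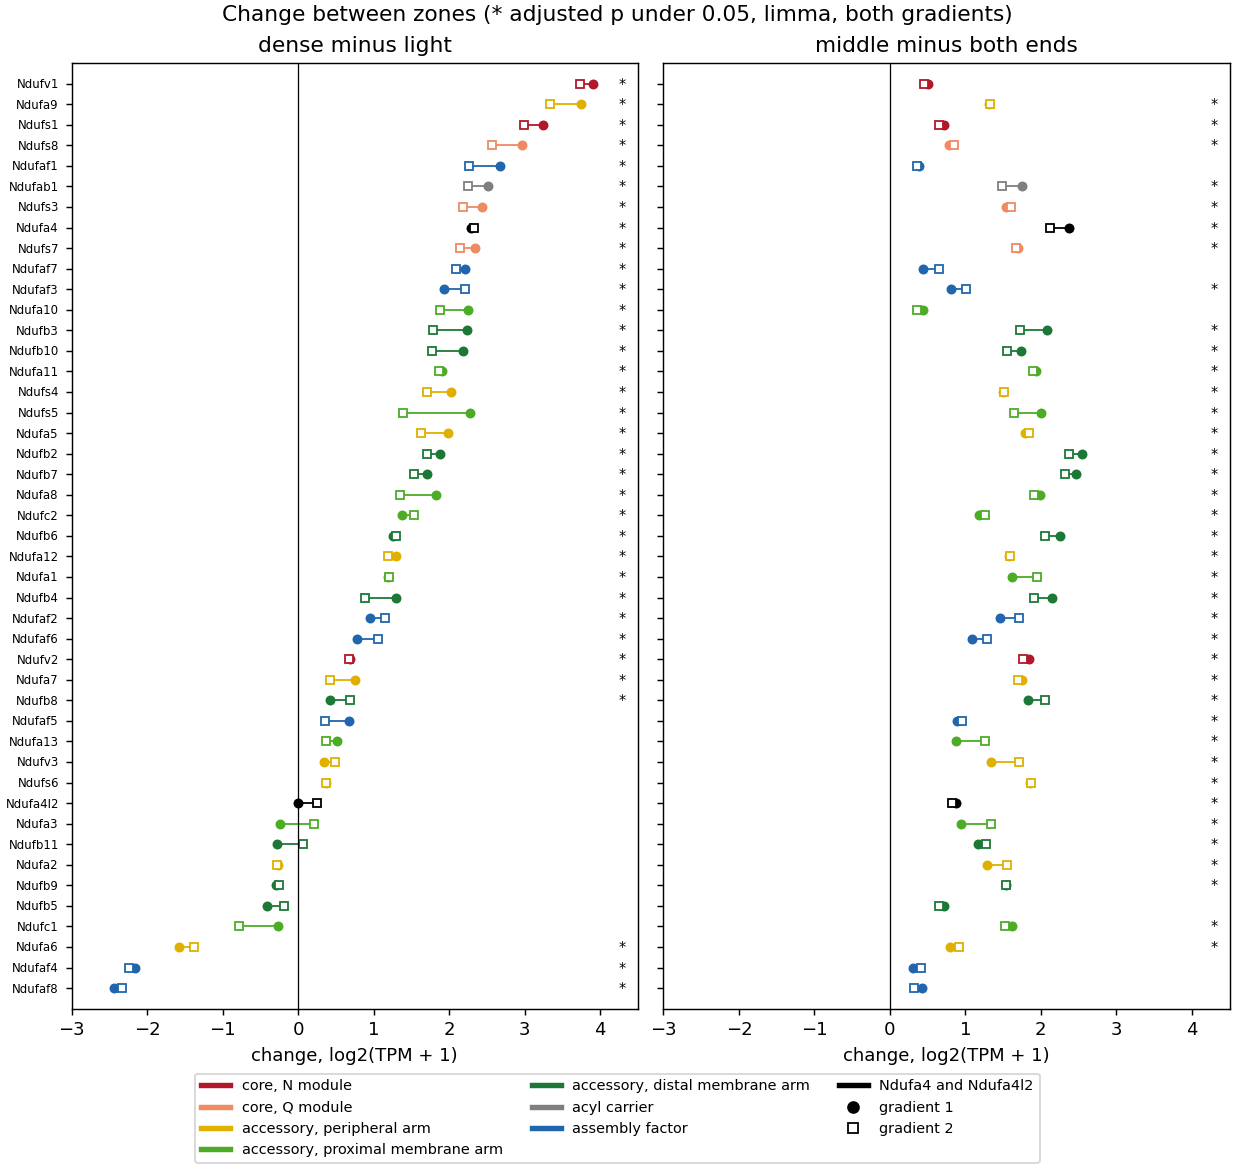
Difference of zone means on the log2(TPM + 1) scale for 45 of the 46 Nduf RNAs, ordered by the difference between the dense and the light zone (left panel), with the middle zone against the mean of both ends in the right panel. Filled circles are gradient 1, open squares gradient 2, color gives the role of the product, and asterisks mark an adjusted p under 0.05. All points of the right panel lie above 0, whereas the left panel runs from −2.38 to 3.82 as the mean of both gradients.

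All 7 core subunits were higher in the dense than in the light zone, with a median difference of 2.32, as were 19 of the 29 accessory subunits and 22.4% of all genes. The difference between core and accessory subunits was not tested. From the middle to the dense zone 2 of the 7 rose and 1 fell (3 and 3 with the block), where 4.85% of all genes rose and 22.7% fell (14.3% and 39.5% with the block). The median center of the core subunits was 13.7. The 3 core subunits of the N module, which oxidizes NADH, had centers of 12.0 (Ndufv2), 15.0 (Ndufs1) and 15.7 (Ndufv1). Ndufv1, which binds NADH and the flavin cofactor, measured 55.3 and 48.1 TPM in the light zone of gradients 1 and 2, 293 and 233 TPM in the middle zone, and 767 and 606 TPM in the dense zone. The ranges of the zones did not overlap, and it was still at 643 TPM over fractions 22 to 24 of gradient 2. Its difference between dense and light, 3.82 ± 0.20 (SE, adjusted p = 0.000307), was the largest of the 46.

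Ndufs1, the largest core subunit of the peripheral arm and the carrier of several iron-sulfur clusters, went from 30.01 and 35.2 TPM in the light zone through 149.3 and 157 TPM to 274 and 280 TPM in the dense zone, a difference of 3.12 ± 0.16 (SE, adjusted p = 0.000307). Like Ndufv1 it kept its level to the bottom, with 293 TPM over fractions 22 to 24 of gradient 2. Ndufv2, which joins with Ndufv1 early in assembly, did not share that position. It measured 76.9 and 90.6 TPM in the light zone, 324 and 366 TPM in the middle zone and 114 and 137 TPM in the dense zone, so that its middle values were above all the others. It fell from the middle to the dense zone by 1.46 on the log2 scale, where Ndufv1 rose by 1.43. Across fractions, R between Ndufv1 and Ndufs1 was 0.953 in gradient 1 and 0.971 in gradient 2, while R between Ndufv1 and Ndufv2 was −0.200 and −0.249. Such correlations are descriptions over 17 and 22 neighboring fractions that are not independent of each other, and the partner pairs named here and below were chosen with the values known.

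The 4 core subunits of the Q module, which delivers electrons to ubiquinone, were closer to each other. Their centers lay between 13.6 for Ndufs3 and 14.5 for Ndufs8, and the median R over their 6 pairs was 0.846 in gradient 1 and 0.875 in gradient 2. Ndufs7, which helps to form the quinone site, had 82.8 and 76.3 TPM in the light zone, 550 and 469 TPM in the middle zone and 381 and 304 TPM in the dense zone. Its highest zone was thus the middle, though in gradient 2 it peaked between the zones, in fraction 14 (631 TPM). Its difference between dense and middle, −0.56 ± 0.19 (SE), passed only with the block (adjusted p = 0.0790, with the block 0.00781). Ndufs8, a carrier of iron-sulfur clusters, measured 86.5 and 85.4 TPM in the light zone, 388 and 356 TPM in the middle zone and 622 and 477 TPM in the dense zone. Among the zones Ndufs3 was highest in the middle, like Ndufs7, with 96.5 and 104 TPM in the light zone, 562 and 604 TPM in the middle zone and 453 and 430 TPM in the dense zone. In gradient 2 it also peaked between the zones, in fraction 14 (764 TPM). Its difference between dense and middle, −0.41 ± 0.15 (SE), passed only with the block (adjusted p = 0.101, with the block 0.0290).

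**Figure D3:**
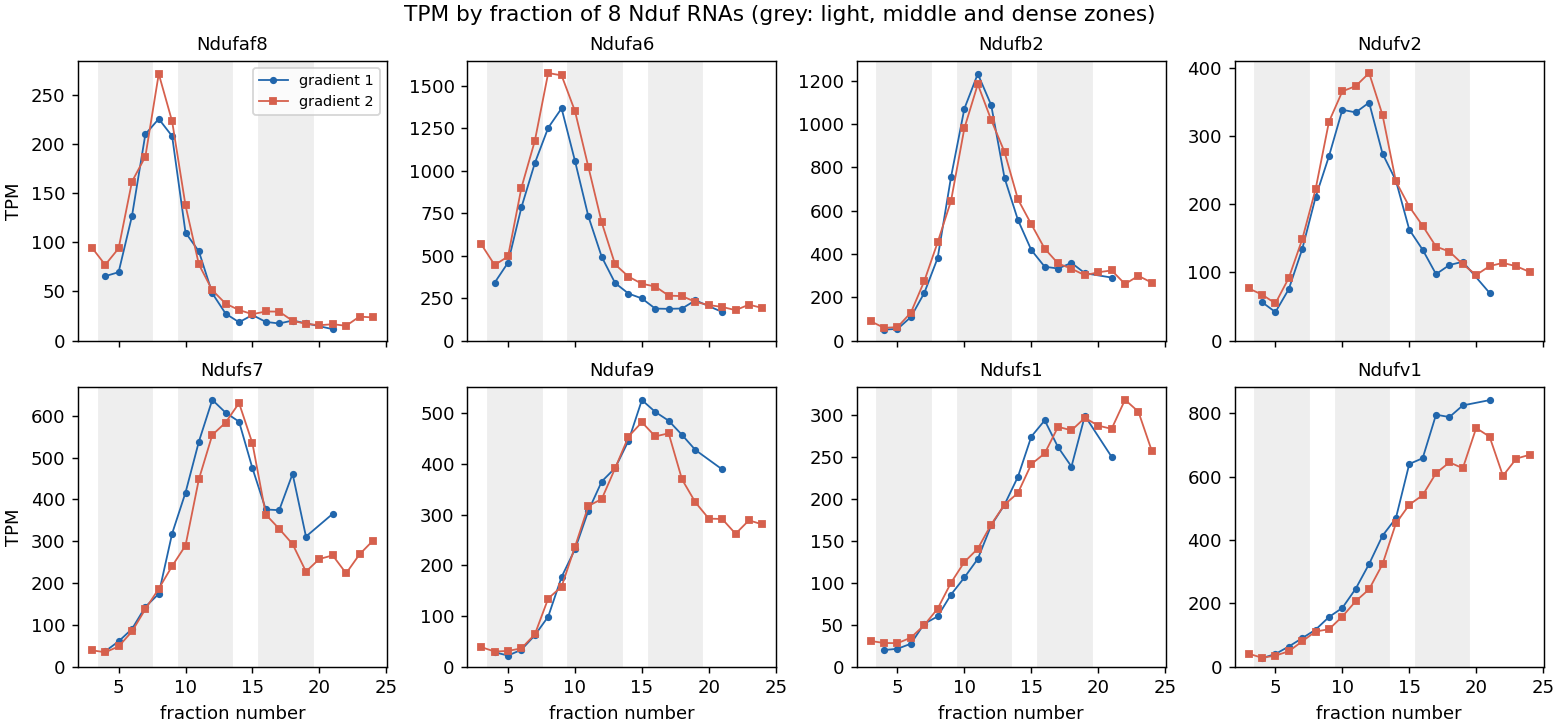
TPM by fraction number of 8 Nduf RNAs in gradient 1 (blue circles) and gradient 2 (red squares), each panel with its own linear axis from 0, and with the light, middle and dense zones shaded. Ndufaf8 peaked in fraction 8 of both gradients, and Ndufv1 in fraction 21 of gradient 1 and fraction 20 of gradient 2. Between them the maximum mostly moves to denser fractions, but Ndufs1 peaked in fraction 22 of gradient 2.

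The accessory subunits of the distal membrane arm, Ndufb2 to Ndufb11, had similar profiles. Their mean profile peaked in fraction 11 of both gradients, and none of their 45 pairs had a negative R, with medians of 0.792 in gradient 1 and 0.829 in gradient 2. Over all pairs of the genes tested the medians were 0.065 and 0.114, and over all 1035 pairs of members they were 0.559 and 0.613. Of these 10 subunits 9 rose from light to middle and 8 fell from middle to dense, with medians of 2.60 and −1.50, where 23.7% of all genes rose and 22.7% fell. With the block all 10 passed in both comparisons, as did 37.5% and 39.5% of all genes.

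Ndufb2 measured 108 and 131 TPM in the light zone, 1036 and 1014 TPM in the middle zone and 336 and 354 TPM in the dense zone. Ndufb7, which carries disulfide bonds on the intermembrane side, measured 104 and 115 TPM, then 918 and 831 TPM, then 291 and 283 TPM. For both RNAs every middle value exceeded every dense value, and every dense value exceeded every light one, and R between them was 0.990 and 0.993, the pair of members with the highest lower value. Ndufb5 had the flattest profile of the group, with 129 and 146 TPM in the light zone, 175 and 216 TPM in the middle zone and 90.9 and 126 TPM in the dense zone. Its difference between dense and light was −0.30 ± 0.23 (SE, adjusted p = 0.292), which passed only with the block (0.0441). Annotated genes overlap Ndufb2, Ndufb8 and Ndufb9 on the same strand, and Ndufb4 has near-identical copies in the annotation, so the TPM of these 4 could include reads of other transcripts.

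Among the 9 accessory subunits of the proximal membrane arm, all 9 rose from light to middle and 5 fell from middle to dense, compared with 23.7% and 22.7% of all genes. With the block 8 of the 9 fell, and 39.5% of all genes. Their centers spread from 10.4 for Ndufc1 to 14.3 for Ndufa10. Ndufa8, which like Ndufb7 is a twin-cysteine protein of the intermembrane side, had 107 and 110 TPM in the light zone, 670 and 604 TPM in the middle zone and 320 and 259 TPM in the dense zone. Ndufa10 had 139 and 165 TPM in the light zone, 409 and 406 TPM in the middle zone and 650 and 601 TPM in the dense zone, with each zone above the one before. Ndufc1, a small subunit, had 181 and 263 TPM in the light zone, 464 and 581 TPM in the middle zone and 117 and 135 TPM in the dense zone, and its difference between dense and light was −0.52 ± 0.28 (SE, adjusted p = 0.151; with the block 0.0223). The values of Ndufs5, Ndufa11 and Ndufa13 are less certain, the first 2 because of near-identical copies and the last because another protein-coding gene, Yjefn3, overlaps it on the same strand.

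The 9 accessory subunits of the peripheral arm had the widest range among subunits. Ndufa9, which sits near the quinone site and binds a nicotinamide nucleotide, had 36.5 and 40.3 TPM in the light zone, 324 and 319 TPM in the middle zone and 468 and 402 TPM in the dense zone. Its difference between dense and light, 3.54 ± 0.16 (SE, adjusted p = 0.000307), was next to that of Ndufv1, with no overlap of the zone means. Its difference between dense and middle, 0.45 ± 0.16 (SE), passed only with the block (adjusted p = 0.0937, with the block 0.0347). Ndufa6, a protein of the LYR family that binds an acyl carrier protein, was the reverse. It had 657 and 754 TPM in the light zone, 655 and 879 TPM in the middle zone and 200 and 268 TPM in the dense zone, so that light and middle overlapped and dense lay below both, with a difference between dense and light of −1.48 ± 0.24 (SE, adjusted p = 0.00309).

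The remaining 7 subunits of the peripheral arm lay between, with centers from 10.6 for Ndufa2 to 13.4 for Ndufs4, a subunit whose loss is a known cause of Leigh-like disease in mice. Ndufab1, the mitochondrial acyl carrier protein that is found in both arms and also serves fatty acid synthesis, had 61.9 and 70.8 TPM in the light zone, 489 and 431 TPM in the middle zone and 340 and 330 TPM in the dense zone. It rose from light to dense by 2.39 ± 0.16 (SE, adjusted p = 0.000327). Its position differed from that of Ndufa6, with centers of 13.7 ± 0.01 (SD, n = 2) and 9.92 ± 0.11 (SD, n = 2).

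The profiles of the assembly factors were less alike than those of the members as a whole. Their median R over 28 pairs was 0.200 in gradient 1 and 0.189 in gradient 2. The medians were 0.559 and 0.613 over all pairs of members and 0.065 and 0.114 over all pairs of the genes tested. In each gradient 9 of the 28 pairs were negative, compared with 207 and 158 of the 1035 pairs of members. From light to dense 5 rose, 2 fell and Ndufaf5 did not pass (0.52 ± 0.20 SE, adjusted p = 0.0621; with the block 0.0177), while of all genes 22.4% rose and 39.0% fell. Ndufaf1, a component of the complex that builds the membrane arm, had 12.4 and 14.1 TPM in the light zone, 42.3 and 39.6 TPM in the middle zone and 81.7 and 68.1 TPM in the dense zone. Each zone lay above the one before, and the difference between dense and light was 2.47 ± 0.17 (SE, adjusted p = 0.000335).

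Ndufaf8 had 118 and 130 TPM in the light zone, 69.1 and 76.0 TPM in the middle zone and 18.6 and 24.1 TPM in the dense zone, and Ndufaf4 had 18.7 and 21.3 TPM, then 10.2 and 12.6 TPM, then 3.29 and 3.56 TPM. The zone means of neither overlapped, and their order was opposite to that of Ndufaf1. Single fractions of the light and middle zones did overlap. In gradient 1 Ndufaf8 had 65.6 TPM in fraction 4 and 110 TPM in fraction 10. In gradient 2 Ndufaf4 had 14.2 TPM in fraction 7 and 18.0 TPM in fraction 10. Their differences between dense and light were −2.38 ± 0.19 (SE, adjusted p = 0.000402) and −2.20 ± 0.21 (SE, adjusted p = 0.000613). Ndufaf4 peaked in fraction 5 of both gradients and Ndufaf8 in fraction 8 of both.

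Some factors known to work as partners had different centers. Ndufaf3 and Ndufaf4 act jointly on the early Q module, and their centers were 13.9 ± 0.13 and 8.91 ± 0.08 (SD, n = 2), with R of −0.853 in gradient 1 and −0.642 in gradient 2. Ndufaf8 stabilizes Ndufaf5, a hydroxylase of Ndufs7, and the centers of Ndufaf5 and Ndufaf8 were 12.2 ± 0.57 and 8.98 ± 0.04 (SD, n = 2), with R of 0.071 and 0.504. Ndufaf2, the paralog of the subunit Ndufa12, had a center of 12.5 ± 0.01, compared with 12.6 ± 0.01 for Ndufa12 (SD, n = 2), and R between them was 0.925 and 0.978.

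Other assembly factors of complex I do not carry the prefix. Of 13 listed, 10 were in both tables, and of these 6 rose from light to dense, 3 fell and Tmem186 did not pass, where 22.4% of all genes rose and 39.0% fell. The largest rise was that of Acad9 (1.497), and the largest fall was that of Timmdc1 (0.97). Ndufa4, outside complex I, was highest in the middle, with 239 and 284 TPM in the light zone, 2487 and 2545 TPM in the middle zone and 1053 and 1307 TPM in the dense zone.

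Subunits of the other complexes had a similar outline. Of 39 subunits of complexes II to V, 37 rose from light to middle, 24 fell from middle to dense, and 29 rose and 5 fell from light to dense, with medians of 2.04, −1.11 and 1.18. Of all genes 23.7% rose from light to middle, 22.7% fell from middle to dense, and 22.4% rose and 39.0% fell from light to dense. The median center of these 39 genes was 12.6 (lowest 9.00 and highest 15.3 in gradient 1). The 3 largest differences between dense and light were those of Uqcrc1, a core protein of complex III (3.72), Atp5g3, a c subunit of ATP synthase (3.12), and Uqcrc2, also a core protein of complex III (2.95). The lowest was that of Cox7a2l, a factor of supercomplex formation (−2.63).

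Longer coding sequences went with denser positions among the Nduf RNAs. Over the 46 members the center had a Spearman's rho of 0.519 with coding length in codons (Pearson's r = 0.563 with log2 length), compared with rho = 0.125 over the 10743 tested genes that have an annotated coding length. It was 0.509 over the 36 subunits of complex I and 0.821 over the 39 subunits of complexes II to V, and against mean TPM the members had rho = −0.109. These values describe genes, which are not replicates, and carry no test. Length was taken from the principal annotated isoform, and for Ndufv3, which has isoforms of 86 and 468 codons, the choice mattered: without this gene rho was 0.587.

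Members were denser than other genes of like length. In 42 of 46 the center lay above the median of other genes in the same range of coding length. For the 14 members with at least 100 and under 150 codons the median center was 12.4, compared with 11.0 for 566 other genes, and for the 9 members with at least 300 and under 500 codons it was 14.3, compared with 11.3 for 3040 others. The 4 exceptions were Ndufaf4 (1.97 fractions lighter than the median of its range), Ndufaf8 (1.43), Ndufa6 (1.08) and Ndufv3 (0.18). At the other extreme Ndufv1 lay 4.45 fractions above the median of its range, Ndufaf1 3.49 and Ndufa9 3.35. Ndufa4, with only 82 codons, lay 2.65 fractions above.

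**Figure D4:**
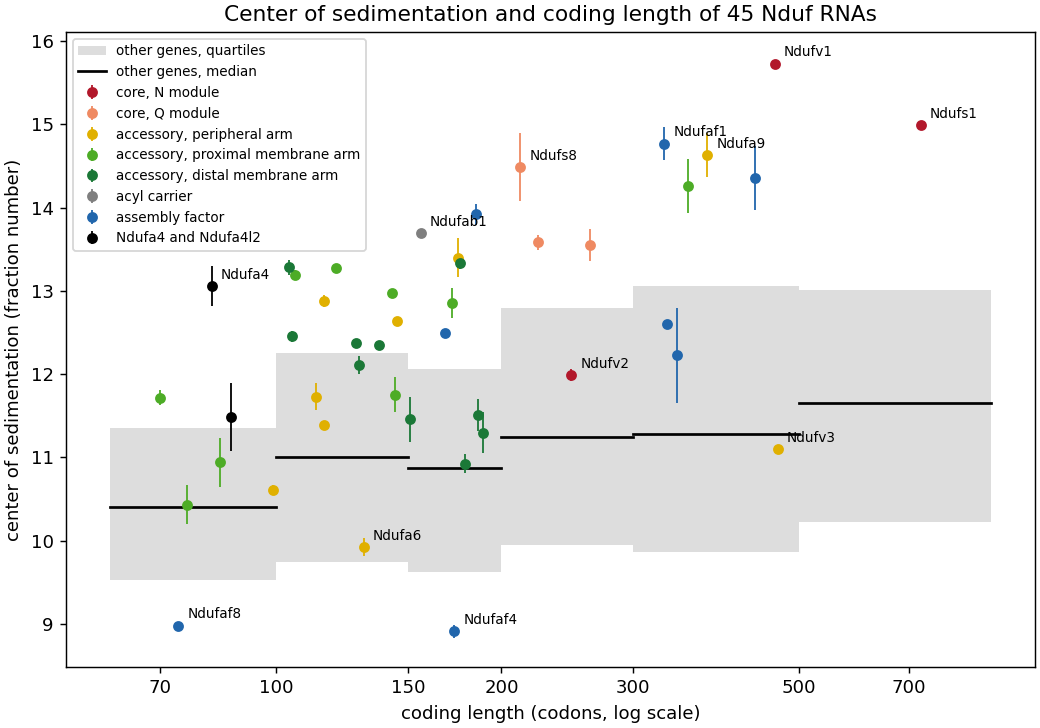
Center of sedimentation (fraction number) against coding length in codons (log scale) for 45 of the 46 Nduf RNAs, with points at the mean of both gradients, bars of 1 SD (n = 2) and color for the role of the product. Black lines and grey boxes give the median and quartiles of all other tested genes per range of coding length (the last range has no upper limit), and the points of Ndufaf4, Ndufaf8, Ndufa6 and Ndufv3 lie below the black line of their range.

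The sequence around the start codon was shared by several of these RNAs. The 10 letters found there most often among the members, AAGATGGCGG, read on the transcript strand with ATG as the annotated start codon, form the core of the element known as TISU (translation initiator of short 5′ UTR), which is common in genes of basic and mitochondrial functions. They stood at the start codon of 7 of 46 members (15.2%) and of 206 of the 10592 tested genes with an annotated start context (1.94%). They were also the most frequent letters there among all tested genes, but they were picked from the members, so the higher share is a description. The contexts of 5 of the 7 are shown, in order of center from light to dense, because they carry the same letters at centers from 9.92 to 14.6. Capitals mark the 10 letters, 9 bases precede the ATG, and the transcripts are those of GENCODE on GRCm38.
Ndufa6: ctcggcAAGATGGCGGccgcggccaccggc
Ndufs6: accggcAAGATGGCGGcggtgctgaccttc
Ndufs4: tacaggAAGATGGCGGcggtctcaatgtca
Ndufs7: gaggccAAGATGGCGGcgctggcggctcct
Ndufa9: tgggagAAGATGGCGGccgccgtccgcttt

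The genes lie on chromosome 15 from 82350140 to 82354322 (Ndufa6, minus strand), chromosome 13 from 73319838 to 73328542 (Ndufs6, minus) and from 114287795 to 114388258 (Ndufs4, minus), chromosome 10 from 80249121 to 80256794 (Ndufs7, plus) and chromosome 6 from 126821721 to 126849136 (Ndufa9, minus). The annotated 5′ UTR was short for Ndufa9 (13 bases) and long for Ndufs7 (248 bases), and its median was 94 bases in members with and without the motif. Ndufa6, with a center of 9.92, and Ndufa9, with a center of 14.6, were at opposite ends of the 7. The median center was 13.4 with the motif and 12.5 in the 39 members without it, a difference that was not tested. Single centers of the latter ran from 8.91 to 15.7. The median coding length was 175 codons with the motif and 156 codons without it.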

How the data were processed

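Livers of wild-type FVB female mice were homogenized without detergent, and RNA of each fraction of 2 sucrose gradients (39 libraries) was depleted of ribosomal RNA and sequenced in stranded libraries. The authors pseudo-aligned reads with Kallisto (version not given in the sources used here) to an mm10 RefSeq index and deposited TPM per gene symbol for genes over 1 TPM in at least 1 fraction. The submitters' processing notes also name bcl2fastq 2.16.0.10. TPM is no count, so no count model was used and depth is unknown. The unmatched value columns numbered 0.

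Zone means of log2(TPM + 1) were fitted with limma 3.58.1 (R 4.3.3, eBayes with trend) where the mean TPM was 1 or more, after a test on simulated data. That test drew the zone means independently of each other, so it does not cover the pairing of zones described below. The members and lists were chosen with earlier results of these data known. Members are named by the extremes of each contrast, center, level and agreement, and by their role. The gradients pair the zones, which come from the same homogenate: deviations of zones from their means correlated across genes (r = 0.665 for light and middle, 0.541 for light and dense, 0.800 for middle and dense). P-values measure the spread between these 2 gradients. Coding lengths and start contexts came from GENCODE M21 on GRCm38, the assembly of mm10 (92.2% of tested genes had a length). Alternatives were the pseudocount, the filter, scaling, zone borders, the trend, the block and each gradient alone. Values of 1 of the 46 members are not reported here singly, though it enters the counts and medians. Protein sequences and mitochondrially encoded RNAs were not analysed here. Tables and figures were made in Python 3.11.15 with pandas 2.3.3, NumPy 2.4.6, matplotlib 3.10.9 and SciPy 1.17.1.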

Additional observations from a re-analysis of the deposited data

How the results depend on the processing

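The members lower in the dense than in the light zone, 3 as reported, numbered 5 after quantile normalization, 5 with the replicate block, 8 with both (chosen after seeing the data) and 7 with zones of fractions 5 to 8 and 15 to 18. Those higher in the dense than in the middle zone, 4 as reported, numbered 7 with the block and 8 with block and quantile normalization. Those lower in the middle than in the light zone, 2 as reported, numbered 1 with a minimum mean of 10 TPM and 1 with the other zones. The other counts of calls stayed within 1.5 times under each alternative fitted. Of 1644 values of single members under an alternative with a test, 1523 kept direction and call, 68 gained a call, 45 lost one and 8 changed sign. With the other zones, Ndufa7 between light and dense went from a called 0.59 to −0.031, and uncalled differences changed sign for Ndufa13 (−0.13), Ndufa4l2 (−0.19), Ndufs6 (−0.14) and Ndufv3 (−0.36) between light and dense and for Ndufa6 (−0.35) between light and middle, which was −0.13 after quantile normalization with or without the block. The causes were not tested. The median center was 13.6 over all 22 fractions of gradient 2, which add dense fractions by construction. Agreement between gradients was 0.903 and 0.859 when the fraction numbers of gradient 2 were shifted by 1 either way. The median R over pairs of members, 0.613 in gradient 2, was 0.720 on the log2 scale and 0.559 in gradient 1 alone. The Spearman correlation with coding length was 0.560 for members of at least 10 TPM, 0.486 without assembly factors and 0.600 with the short isoform of Ndufv3 (added after seeing the data). With a single gradient no spread can be estimated, so those alternatives give values without a test, and between light and dense the differences of Ndufa3 (0.21) and Ndufb11 (0.06) were then positive in gradient 2 and negative over both.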

Other observations

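The genes outside the list whose profiles were most like the mean profile of the Nduf RNAs were ranked by the lower of the R values in the 2 gradients, over 7051 candidates. The first was Osgep, an enzyme of tRNA modification (0.972 in gradient 1 and 0.976 in gradient 2), followed by Macrod1, a mitochondrial hydrolase of ADP-ribose (0.971 and 0.981), and Pagr1a (0.973 and 0.970). Among the first 10 were also the mitochondrial ribosomal protein Mrpl3 (0.966 and 0.981), Aurkaip1, a protein of the mitochondrial ribosome (0.969 and 0.984), and Stoml2, a scaffold of the inner mitochondrial membrane (0.962 in both). The list also held Pnpla2, the triglyceride lipase of lipid droplets (0.963 and 0.985), and Acot7, an acyl-CoA thioesterase (0.963 and 0.970). These values are descriptions across fractions and carry no test.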
